A study of Homo sapiens with 12 samples.

Results

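The genes described are 10 members of the integrated stress response: the heme-regulated kinase EIF2AK1, the transcription factor ATF4, and ATF4's targets and partners ATF3, DDIT3, CEBPB, TRIB3, ASNS, CHAC1, SESN2 and DDIT4. They were chosen by function, with earlier results of these data known. They were found by symbol and joined by Ensembl identifier to a table of 60483 genes, and all 10 had enough counts to be tested. RNA was sequenced from HUDEP-2 cells, an immortalized human erythroid progenitor line from umbilical cord blood that makes mostly adult hemoglobin. Control cells carried a scrambled guide RNA (sgSCR, genotype label WT), and knockout cells were labelled MBD2-/-, disrupted in MBD2, a methylated-DNA binding subunit of the NuRD repressor complex. Both genotypes were sampled at 2 stages, which makes 4 groups of 3 libraries. Cells before differentiation were in expansion medium, SFEM II with stem cell factor, erythropoietin, dexamethasone and doxycycline, and were labelled as early basophilic erythroblasts. Cells after differentiation were labelled as late basophilic erythroblasts and were in IMDM with human AB serum, erythropoietin, doxycycline, insulin, heparin and holo-transferrin. All groups had erythropoietin, doxycycline and glutamine. Stage, base medium, stem cell factor, dexamethasone and the added serum, insulin, heparin and holo-transferrin change together and cannot be told apart. The sources used here do not state whether the replicates were separate cultures or whether the knockout line was 1 clone, and p-values therefore cover library-to-library spread alone.

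The integrated stress response begins when a kinase phosphorylates the translation initiation factor eIF2. Phosphorylated eIF2 inhibits its exchange factor eIF2B and lowers protein synthesis in general, while a few mRNAs with upstream open reading frames, ATF4 and DDIT3 among them, are translated more. Each kinase senses its own stress: EIF2AK1 (HRI) low heme and mitochondrial stress, EIF2AK2 (PKR) double-stranded RNA, EIF2AK3 (PERK) misfolded protein in the endoplasmic reticulum, and EIF2AK4 (GCN2) uncharged tRNA. In erythroid precursors EIF2AK1 matches globin synthesis to the supply of heme. ATF4 then pairs with C/EBP proteins and activates genes of amino acid supply, redox balance and, through DDIT3 (CHOP), cell death. Since kinase activity and ATF4 protein are set largely after transcription, mRNA counts do not measure eIF2 phosphorylation.

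ATF4 and C/EBP proteins bind a shared DNA element, and its core letters TGATGNAAN were looked for on both strands of windows from 250 bases before to 50 bases after annotated starts (RefSeq, GRCh38.p14). Windows were present for 9 of the 10 genes, 16 windows in all. The core was found in 1 window each of ATF3, ASNS and CHAC1, which are shown with 10 bases on each side, 5′ to 3′ on the gene's strand and with the match in capitals.
ATF3, chr1:212565206-212565234, plus strand: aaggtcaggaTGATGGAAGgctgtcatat
ASNS, chr7:97872458-97872486, minus strand: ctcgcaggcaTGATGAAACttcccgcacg
CHAC1, chr15:40953251-40953279, plus strand: ctcccctgccGTTGCATCActcctgccag
The matches began 191, 68 and 210 bases before the RefSeq start, and that of CHAC1 reads TGATGNAAN on the opposite strand. The stretches of ASNS and CHAC1 also lie in exons of the gene models used for counting, which start farther upstream, and that of ATF3 does not. The core was present in 3 of 9 member genes, in 16 of 57 other pathway genes with windows (28.1%) and in 4.45% of all 27305 genes in the table. The cyclic AMP response element TGACGTCA and the ER stress element were searched the same way, with overlaps between motifs not counted, and were in none of the member windows and in 2.25% and 0.0916% of all genes. A match describes letters in a window and not a binding site.

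MBD2 mRNA ranged from 58.2 to 78.7 CPM (counts scaled to library size and composition) in the control libraries and from 14.6 to 24.5 CPM in the knockout libraries. Libraries held 7667997 to 14047498 counts. Scaling factors were 0.883 to 0.931 in the knockout libraries after differentiation and 1.01 to 1.07 in the other 9, and ribosomal RNA genes took 1.72 to 2.77% of counts in those 3 libraries against 0.403 to 1.36%. All 9 erythroid markers were detected, and their summed level rose from 8002 to 8801 CPM in control to 15775 to 17610 CPM in knockout libraries after differentiation. The markers include the globin gene HBB. The labels' protocols name a kit that depletes globin RNA, so counts of HBB do not measure its level in the cells. Lymphoid and stromal markers summed to at most 0.571 and 1.17 CPM in any library.

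All 10 genes were higher in knockout than in control cells after differentiation. At that stage 33.1% of 17175 genes tested were called either way and 16.8% were called higher (edgeR quasi-likelihood test, Benjamini-Hochberg adjusted p under 0.05). In none of the 10 did the 3 knockout libraries overlap the 3 control libraries, and the median log2 fold change was 0.79, beside -0.01 for all genes tested. The share of all genes without such overlap was not counted. In these bulk samples, a change in the share of cells that express a gene and a change in RNA per cell cannot be told apart. Summed over the 10 genes, the level was 2096 to 2387 CPM in knockout and 1399 to 1494 CPM in control libraries.

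**Figure D1:**
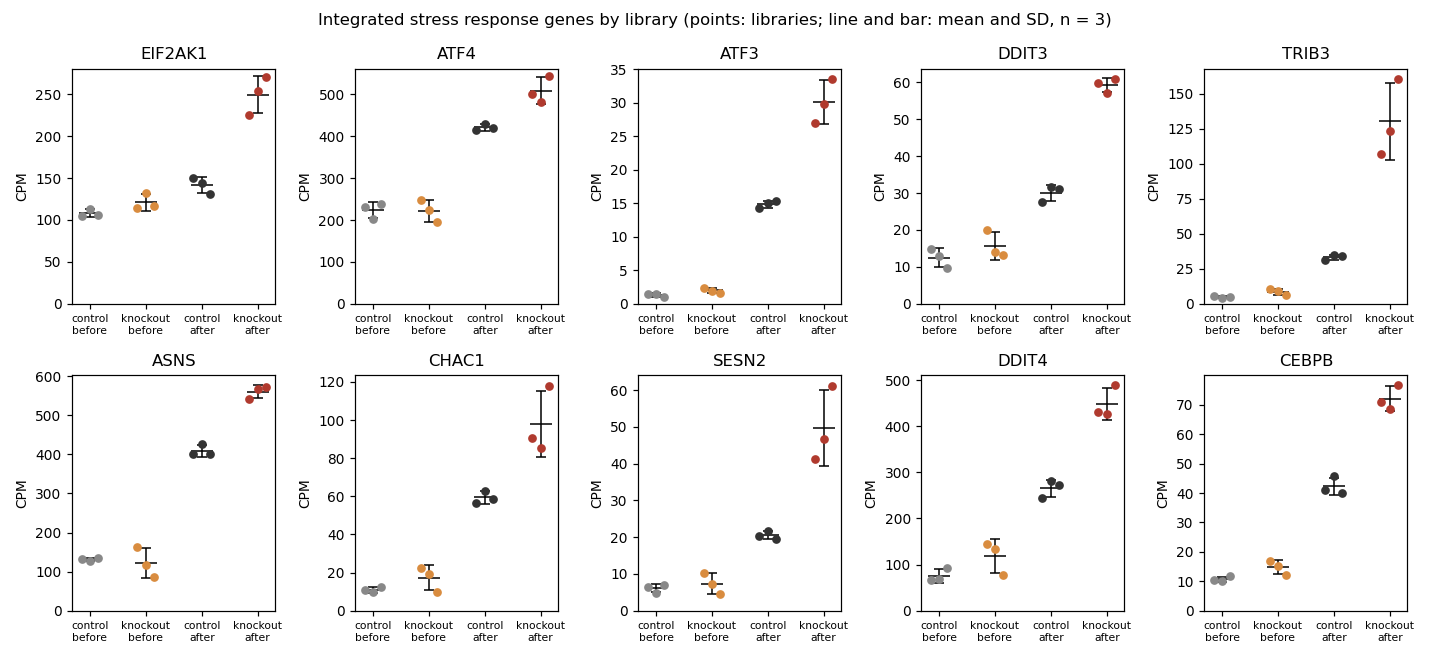
Level of each of the 10 genes in CPM (y axis, from 0) in control and knockout cells before and after differentiation. Points are single libraries and the line and bar give mean and SD (n = 3). The knockout libraries after differentiation lie above all others for each gene, for example TRIB3 at 107 to 160 CPM against at most 34.7 CPM elsewhere.

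EIF2AK1, the heme-regulated kinase (ENSG00000086232.11, chromosome 7, 6022244 to 6059230, minus strand, GRCh38), stood at 105, 113 and 106 CPM in the control libraries and at 114, 133 and 116 CPM in the knockout libraries before differentiation. Once differentiated, levels were 150, 144 and 131 CPM in the control libraries and 225, 253 and 270 CPM in the libraries with MBD2 disrupted. The groups did not overlap at either stage, but the difference passed the test only after differentiation. There it was 1.76-fold, a log2 fold change of 0.82 ± 0.08 (SE; adjusted p = 4.41e-07), against 0.16 ± 0.08 before (adjusted p = 0.189). The knockout effect itself differed between the stages, by 0.65 ± 0.11 on the log2 scale (adjusted p = 9.94e-04), where 13% of all genes were called. Differentiation raised EIF2AK1 1.31-fold in control cells and 2.06-fold in knockout cells, the smallest rise of the 10 genes in each. Its exons share 532 of 5550 bases with AIMP2 on the opposite strand, which was not called at either stage (0.16 and 0.24).

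The other eIF2 kinases did not follow EIF2AK1. EIF2AK2, the double-stranded RNA sensor, fell in knockout cells after differentiation, from 35.3 to 25.1 CPM (log2 fold change -0.48 ± 0.11, adjusted p = 0.00338). EIF2AK3 and EIF2AK4, the endoplasmic reticulum and amino acid sensors, differed by -0.09 each and were not called (adjusted p = 0.490 and 0.281). With library totals alone, which lowered all genes together, both stood at -0.25 and were called lower. On the scale of CPM per kilobase of exon, EIF2AK1 mRNA was the most abundant of the kinases in each group. Its share of the summed level of the 4 was 54.8 ± 0.883% in control and 59.2 ± 1.48% in knockout cells before differentiation (SD, n = 3). After differentiation that share was 64.2 ± 2.12% in control and 78.1 ± 1.4% in knockout cells, and no knockout library overlapped a control library.

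**Figure D2:**
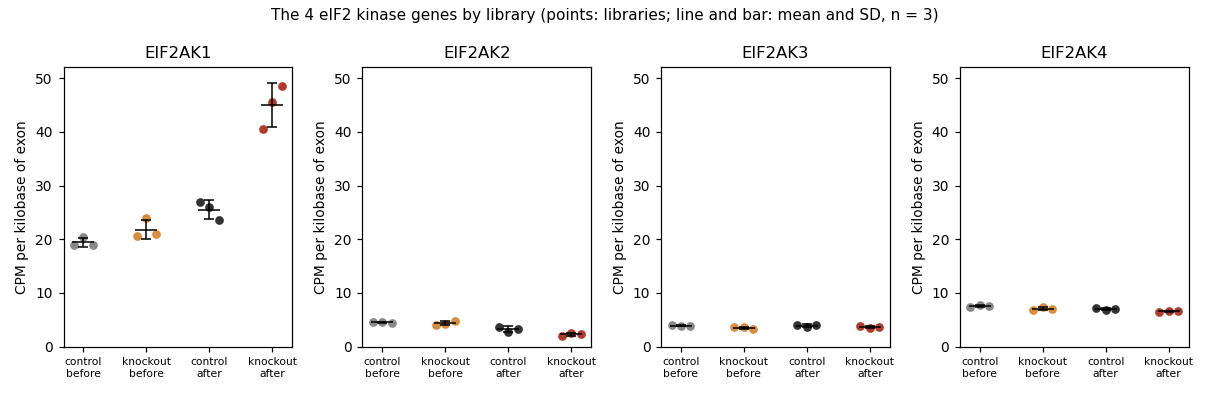
Level of the 4 eIF2 kinase genes in CPM per kilobase of exon (y axis, the same range in each panel) in the 4 groups. Points are single libraries and the line and bar give mean and SD (n = 3). EIF2AK1 stands at 40.6 to 48.6 in knockout libraries after differentiation and EIF2AK2, EIF2AK3 and EIF2AK4 stay lower than EIF2AK1 in each library.

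Regulators of the kinases were mostly not called. IMPACT, an inhibitor of EIF2AK4 activation, was lower in knockout cells before (-0.78 ± 0.08) and after differentiation (-0.64 ± 0.09), and it lies on chromosome 18, as MBD2 does. On that chromosome 149 of 265 tested genes were lower before and 115 after differentiation. OMA1, the mitochondrial protease that cuts DELE1 so that DELE1 can activate EIF2AK1, was lower before differentiation (-0.50 ± 0.11, adjusted p = 0.00418) and not called after it. DELE1 itself fell after differentiation (-0.46 ± 0.11, adjusted p = 0.00339). Of this list of 8 regulators and other kinases, 2 were lower before and 3 after differentiation, where 8.15% and 16.3% of all genes tested were lower, and the others were not called. With library totals alone 6 of the 8 were lower after differentiation, GCN1 (-0.27, adjusted p = 0.0304) being added beside EIF2AK3 and EIF2AK4.

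ATF4, the transcription factor at the centre of the pathway (ENSG00000128272.13, chromosome 22, 39519695 to 39522685, plus strand), had the smallest knockout difference of the 10. It stood at 232, 202 and 238 CPM in the control libraries and at 248, 223 and 196 CPM in the knockout libraries before differentiation, and the groups overlapped. Differentiated cells gave 415, 431 and 420 CPM in the control libraries and 501, 481 and 545 CPM in the libraries with MBD2 disrupted. The knockout libraries were then all higher, by 1.21-fold (log2 fold change 0.27 ± 0.08, adjusted p = 0.0195). With library totals in place of composition scaling the difference was 0.11 (adjusted p = 0.308), when the median of all genes moved to -0.17. Without knockout replicate 3 after differentiation it was 0.22 (adjusted p = 0.0886), and without control replicates 1 and 3 in turn adjusted p was 0.0637 and 0.0539. Differentiation raised ATF4 1.88-fold in control and 2.29-fold in knockout cells.

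The transcription factors downstream of ATF4 had larger knockout differences after differentiation, with 95% intervals that did not overlap that of ATF4. ATF3, a stress-induced repressor of the same family (ENSG00000162772.15, chromosome 1, 212565334 to 212620777, plus strand), stood at 1.5, 1.42 and 1.05 CPM in the control libraries and at 2.38, 1.98 and 1.63 CPM in the knockout libraries before differentiation, from 11 to 33 counts. The knockout libraries lay above the control libraries, but the difference did not pass the test (log2 fold change 0.59 ± 0.23, adjusted p = 0.104). The later levels of ATF3 were 14.3, 15 and 15.3 CPM in the control libraries and 27.0, 29.8 and 33.5 CPM in the libraries with MBD2 disrupted, a 2.03-fold difference (1.01 ± 0.12, adjusted p = 3.95e-06). Its rise with differentiation was 11.2-fold in control and 15.1-fold in knockout cells, the largest of the 10 genes in control cells and close to that of TRIB3 in knockout cells.

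DDIT3, which encodes CHOP, a mediator of cell death under lasting stress (ENSG00000175197.9, chromosome 12, 57516588 to 57520517, minus strand), stood at 14.8, 13 and 9.62 CPM in the control libraries and at 19.9, 14 and 13.1 CPM in the knockout libraries before differentiation. These groups overlapped, and the difference of 0.34 ± 0.16 was not called (adjusted p = 0.161). The later levels were 27.6, 31.5 and 31.0 CPM in the control libraries and 59.8, 57.2 and 60.9 CPM in the libraries with MBD2 disrupted. The later difference was 1.97-fold (0.98 ± 0.13, adjusted p = 2.22e-05) with clear separation of the groups. The difference between the stages, 0.64 ± 0.21, was at the threshold (adjusted p = 0.0499) and lost the call when any 1 of 10 libraries was left out (adjusted p 0.0672 to 0.137), the exceptions being control replicate 3 and knockout replicate 1 before differentiation. It was also lost with the size factors of DESeq2 (adjusted p = 0.0532) and with library totals alone (adjusted p = 0.0914). Of the exon bases of DDIT3, 28.0% lie under MARS, a tRNA synthetase gene on the opposite strand. The log2 difference of MARS was 0.31 ± 0.10 (adjusted p = 0.0229), and read pairs in the shared bases cannot be told apart, since no strand option was used in counting.

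CEBPB, a C/EBP factor that pairs with ATF4 (ENSG00000172216.5, chromosome 20, 50190734 to 50192689, plus strand), was higher in knockout cells at both stages. In expansion medium its levels were 10.4, 10.0 and 11.7 CPM in the control libraries and 17, 15.2 and 12.2 CPM in the libraries with MBD2 disrupted (log2 fold change 0.48 ± 0.12, adjusted p = 0.0106). Differentiated cells held 41.1, 45.6 and 40.0 CPM in the control libraries and 71.0, 68.4 and 76.6 CPM in the libraries with MBD2 disrupted (0.77 ± 0.10, adjusted p = 9.09e-06). The groups overlapped at neither stage. CEBPB is also a gene of the neutrophil and monocyte lineage, whose marker list summed to 14.3 to 16.1 CPM in control and 32.7 to 41.7 CPM in knockout libraries before differentiation. After it the markers summed to 4.32 to 5.34 and 5.17 to 8.58 CPM. Their part in the CEBPB difference was not tested. The antisense gene CEBPB-AS1, which covers 11.8% of the exon bases of CEBPB, held 8 to 18 counts in any library.

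TRIB3, a pseudokinase that ATF4 and DDIT3 induce and that restrains ATF4 in turn (ENSG00000101255.9, chromosome 20, 362835 to 397559, plus strand), had the largest knockout difference of the 10 at both stages. In expansion medium its levels were 5.53, 4.13 and 5.14 CPM in the control libraries and 10.7, 8.98 and 6.42 CPM in the libraries with MBD2 disrupted, a 1.76-fold difference (0.85 ± 0.21, adjusted p = 0.00994). After differentiation the levels were 31.2, 34.7 and 33.8 CPM in the control libraries and 107, 123 and 160 CPM in the libraries with MBD2 disrupted. Knockout replicate 3 was the highest, and the lowest of the knockout libraries stood well above the highest of the control libraries. The difference was 3.91-fold (1.96 ± 0.14, adjusted p = 1.01e-08), and it exceeded that before differentiation by 1.11 ± 0.26 on the log2 scale (adjusted p = 0.00857). TRIB3 rose 6.74-fold with differentiation in control and 15-fold in knockout cells.

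ASNS, the enzyme that makes asparagine (ENSG00000070669.15, chromosome 7, 97852118 to 97872542, minus strand), stood before differentiation at 133, 127 and 134 CPM in the control libraries. The knockout libraries at that stage were spread on both sides of these, at 164, 116 and 86.3 CPM, and the difference of -0.10 ± 0.14 was not called (adjusted p = 0.715). The later levels of ASNS were 400, 427 and 400 CPM in the control libraries and 541, 566 and 573 CPM in the libraries with MBD2 disrupted. This 1.37-fold difference (0.45 ± 0.14, adjusted p = 0.0190) was not called by DESeq2 (adjusted p = 0.0619), nor with library totals alone (0.30, adjusted p = 0.1005). It was also lost without any of 4 of the 6 libraries after differentiation, control replicates 1 and 3 and knockout replicates 2 and 3 (adjusted p 0.0516 to 0.0633). The rise with differentiation was 3.12-fold in control and 4.59-fold in knockout cells.

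CHAC1, which degrades glutathione (ENSG00000128965.10, chromosome 15, 40952962 to 40956519, plus strand), stood at 10.9, 9.62 and 12.7 CPM in the control libraries and at 22.6, 19.1 and 9.86 CPM in the knockout libraries before differentiation. Knockout replicates 1 and 2 lay above the control libraries and replicate 3 among them. The difference of 0.66 ± 0.22 passed the test narrowly (adjusted p = 0.0481), and DESeq2 did not call it (adjusted p = 0.111). The call was also lost with library totals alone (adjusted p = 0.0651) and without any 1 of 9 libraries (adjusted p 0.0523 to 0.258), the exceptions being control replicate 3 and knockout replicate 3 before and knockout replicate 3 after differentiation. The later levels of CHAC1 were 56.5, 63.0 and 58.7 CPM in the control libraries and 90.6, 85.5 and 118 CPM in the libraries with MBD2 disrupted (0.72 ± 0.17, adjusted p = 0.00381). Its knockout effects at the 2 stages differed by 0.05, with a 95% interval from -0.55 to 0.65.

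SESN2, a stress-induced inhibitor of mTORC1 signalling (ENSG00000130766.4, chromosome 1, 28259527 to 28282491, plus strand), stood at 6.47, 4.81 and 6.95 CPM in the control libraries and at 10.2, 7.18 and 4.61 CPM in the knockout libraries before differentiation. The groups overlapped and the difference of 0.32 ± 0.24 was not called (adjusted p = 0.425). In differentiated cells the levels were 20.4, 21.8 and 19.6 CPM in the control libraries and 41.1, 46.8 and 61.2 CPM in the libraries with MBD2 disrupted, a 2.41-fold difference (1.26 ± 0.18, adjusted p = 3.74e-05). This was the second largest of the 10. The difference between the stages, 0.94 ± 0.30, fell just short of the threshold (adjusted p = 0.050008), and DESeq2 called it (adjusted p = 0.0126).

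DDIT4, also known as REDD1 and another inhibitor of mTORC1 signalling (ENSG00000168209.4, chromosome 10, 72273920 to 72276036, plus strand), stood at 65.9, 68.7 and 93.2 CPM in the control libraries and at 144, 134 and 77.7 CPM in the knockout libraries before differentiation. The groups overlapped through knockout replicate 3, and the difference was 0.65 ± 0.17 (adjusted p = 0.0139). At the later stage the levels were 244, 280 and 272 CPM in the control libraries and 432, 426 and 489 CPM in the libraries with MBD2 disrupted (0.76 ± 0.16, adjusted p = 0.00170). The stages differed by 0.11, with a 95% interval from -0.39 to 0.61. DDIT4 is also a target of the glucocorticoid receptor, and dexamethasone was in the expansion medium only. Of 8 other glucocorticoid targets, 3 were higher and 2 lower in knockout cells after differentiation, led by KLF9 (1.54), DUSP1 (0.91) and FKBP5 (-0.63). Of all genes tested 16.8% were higher and 16.3% lower there. With differentiation 4 of the 8 rose and 0 fell in control cells, where 21.5% and 22.3% of all genes did. In knockout cells 5 rose and 1 fell, where 28% and 27.7% did. The part of dexamethasone in the levels of DDIT4 was not tested. DDIT4-AS1, which covers 41.2% of the exon bases of DDIT4 on the other strand, had no counts in any library. With no strand option in counting, read pairs in the shared bases cannot be told apart. The lack of counts therefore does not show that DDIT4-AS1 was silent.

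Calls of a knockout difference before differentiation depended on single libraries. The test called 4 of the 10 genes higher (TRIB3, CEBPB, DDIT4 and CHAC1) and 6 not, where 17.2% of all genes were called either way, 9.07% higher and 8.15% lower. The median log2 fold change of the 10 was 0.41, beside -0.00 for all genes. Without control replicate 2 before differentiation all 4 lost the call, although the log2 fold changes were 0.71 for TRIB3 (adjusted p = 0.0649), 0.42 for CEBPB (0.0638), 0.58 for DDIT4 (0.0704) and 0.56 for CHAC1 (0.183). Leaving out knockout replicate 1 also lost those 4 and called ASNS lower instead (-0.38, adjusted p = 0.0131). Leaving out control replicate 1 or knockout replicate 2 left TRIB3 and CEBPB called, with DDIT4 at adjusted p = 0.0704 and 0.0562. With only the 6 libraries of this stage in the fit, TRIB3 alone was called (adjusted p = 0.0215), while DDIT4, CEBPB and CHAC1 kept log2 fold changes of 0.65, 0.47 and 0.66 (adjusted p = 0.0571, 0.0586 and 0.115).

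The 10 genes moved together between the 3 knockout libraries before differentiation. Replicate 1 was the highest and replicate 3 the lowest for 9 of the 10, the exception being EIF2AK1, while 12.5% of all genes tested and 26 of 71 other pathway genes had that order. The median ratio of replicate 1 to replicate 3 was 1.59 over the 10 genes, a log2 ratio of 0.66, beside 0.19 for the other pathway genes and -0.00 for all genes. Replicate 3 lay within or under the range of the control libraries for ATF4, DDIT3, ASNS, CHAC1, SESN2 and DDIT4. After differentiation knockout replicate 3 was the highest for all 10, as for 38.9% of all genes. In control cells after differentiation the 10 genes lay within 0.12 of their group means on the log2 scale.

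**Figure D3:**
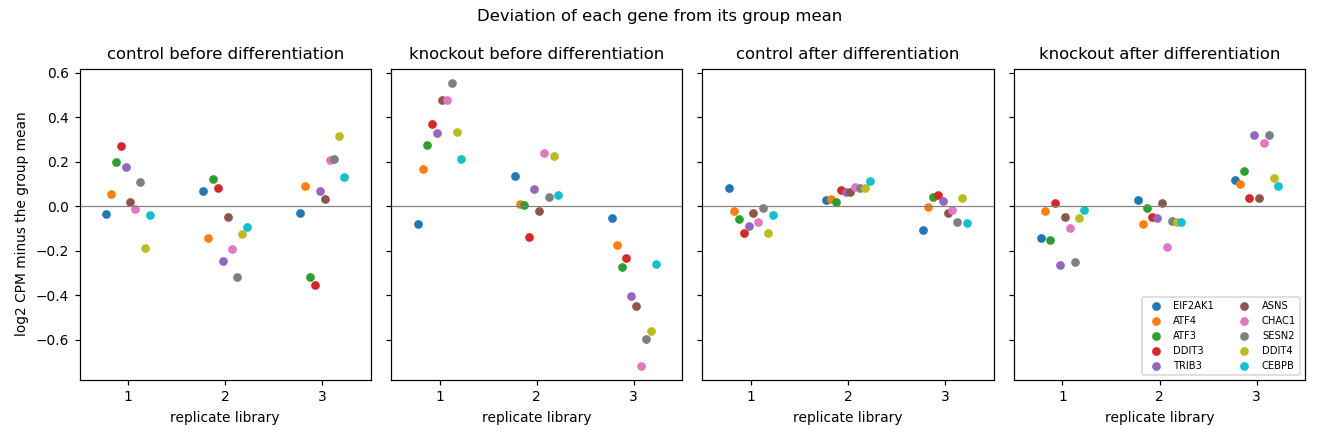
Deviation of each gene's log2 CPM from the mean of its group (y axis) in replicate libraries 1, 2 and 3 (x axis), with 1 panel per group and 1 colour per gene. Among knockout libraries before differentiation the medians over the 10 genes are 0.33, 0.05 and -0.34, and among control libraries after differentiation all points lie between -0.12 and 0.11.

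Differentiation raised all 10 genes in control cells and all 10 in knockout cells, with no overlap between stages. How many of all genes showed no overlap was not counted. In control cells 43.8% of all genes were called either way and 21.5% higher, and in knockout cells 55.7% and 28%. The median log2 rise of the 10 genes was 1.80 in control and 2.23 in knockout cells, beside 0.01 and 0.03 for all genes tested. The difference between these rises is the same contrast as the stage difference of the knockout effects: EIF2AK1, DDIT3 and TRIB3 were called higher in it, where 6.28% of all genes were called higher and 6.68% lower, and 7 genes were not called. Without knockout replicate 1 before differentiation 6 were called, ATF4, ASNS and SESN2 being added. These comparisons share libraries with the knockout comparisons, so they are not separate evidence. Immediate early genes, to which ATF3 is often counted, also rose with differentiation in control cells, 7 of 8 listed, and their part in the rise of ATF3 was not tested.

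**Figure D4:**
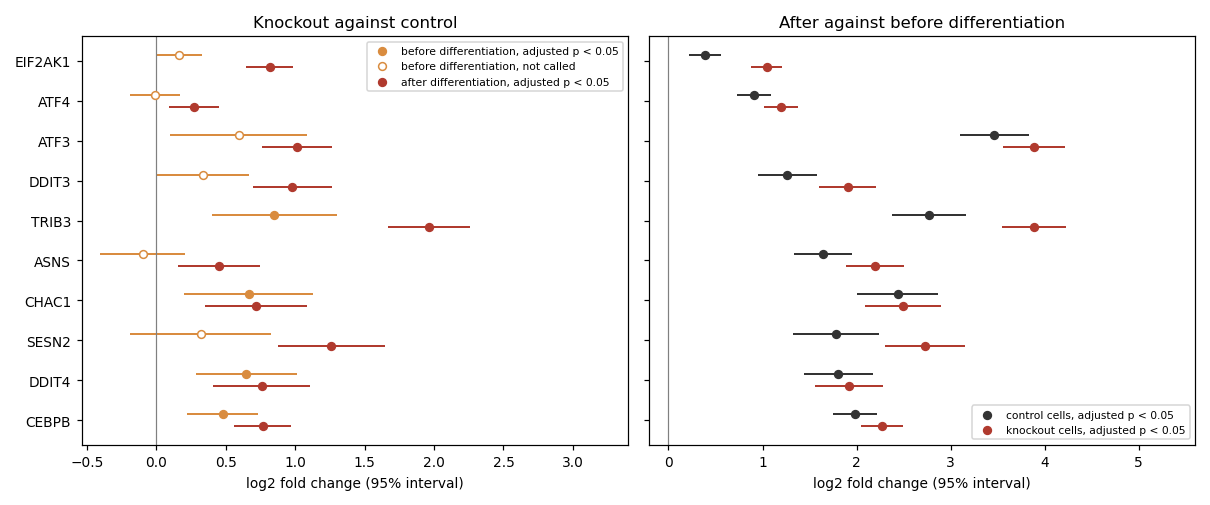
Log2 fold change (x axis) of each of the 10 genes with its 95% interval. The left panel gives knockout against control before and after differentiation and the right panel after against before differentiation in control and knockout cells, with open circles for changes not called. All 10 intervals lie above 0 for knockout against control after differentiation, from ATF4 at 0.27 to TRIB3 at 1.96, and 4 of 10 were called before differentiation.

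Per kilobase of exon the order of levels differed between control cells before and knockout cells after differentiation. Exon lengths include bases shared with other genes, 41.2% of those of DDIT4 and 28.0% of those of DDIT3. DDIT4-AS1 had no counts in any library, so pairs in the bases it shares with DDIT4 were not counted for both genes. If such pairs were counted for neither gene, levels per kilobase are too low for genes with shared bases, most of all DDIT4 and DDIT3. The ranks of these genes, that of DDIT4 against ATF4 included, are therefore uncertain. Before differentiation in control cells ATF4 stood highest at 89.2 ± 7.64 CPM per kilobase (SD, n = 3), followed by DDIT4 at 36.9 ± 7.29, ASNS at 29.4 ± 0.853 and EIF2AK1 at 19.5 ± 0.805. ATF3 was lowest at 0.328 ± 0.0600 and had the lowest level in all 4 groups. In control cells after differentiation ATF4, DDIT4 and ASNS were again the top 3 in that order, at 168, 129 and 91.8. In knockout cells after differentiation DDIT4, at 218 ± 16.9, and ATF4, at 202 ± 12.9, overlapped at the top, and ASNS came next at 126 ± 3.83. CHAC1, DDIT3, EIF2AK1, TRIB3 and CEBPB followed between 36.8 and 47.6 CPM per kilobase, each overlapping its neighbour in that order. TRIB3 was at rank 7 of the 10 there, against rank 9 in control cells before differentiation. It was at rank 8 in knockout cells before and in control cells after differentiation.

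The rest of the pathway was followed in 73 other genes in 7 lists, 71 of them tested. In knockout cells after differentiation 34 were called higher and 7 lower, where 16.8% of all genes tested were called higher and 16.3% lower. These counts became 25 and 14 with library totals alone. Before differentiation 14 were higher and 4 lower, where 9.07% and 8.15% of all genes were. The median log2 fold change of the 71 was 0.21 after and 0.07 before differentiation. With differentiation itself 46 rose and 12 fell in control cells, where 21.5% and 22.3% of all genes tested did. In knockout cells 51 rose and 11 fell, where 28% and 27.7% of all genes tested did.

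**Figure D5:**
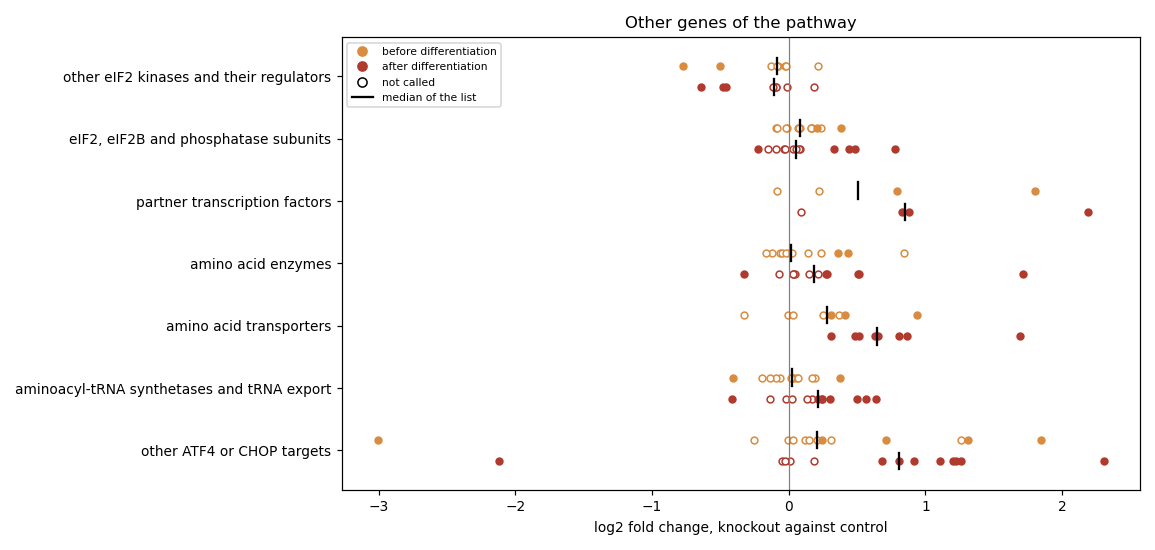
Log2 fold change, knockout against control (x axis), of 71 other pathway genes in 7 lists (y axis), before and after differentiation. Points are genes, open where not called, and black lines are list medians. After differentiation all 8 amino acid transporters lie to the right of 0, with a median of 0.64, and the kinase list has a median of -0.10.

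Of 4 tested partner factors 3 rose in knockout cells after differentiation. ATF5, a translationally controlled factor related to ATF4, measured 17.5 to 22.7 CPM in control and 81.0 to 101 CPM in knockout libraries, a 4.59-fold difference (2.19 ± 0.13, adjusted p = 7.82e-10). CEBPG, the C/EBP protein that dimerizes with ATF4, rose by 0.83 ± 0.08. NUPR1, a stress-induced chromatin protein, rose at both stages from low levels, at most 4.22 CPM in any library. PPP1R15A (GADD34) and PPP1R15B (CReP), which direct a phosphatase to eIF2 and so end the response, rose by 0.78 ± 0.12 and 0.49 ± 0.07. EIF2B5, a catalytic subunit of the exchange factor, fell by 0.22 on the log2 scale (adjusted p = 0.00887). Before differentiation the subunits EIF2B1 and EIF2B4 were higher instead (0.20 and 0.38). In the list of 13 eIF2, eIF2B and phosphatase genes 4 were higher, 1 lower and 8 not called after differentiation, which became 2 higher and 4 lower with library totals alone.

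Genes of amino acid supply were followed as transporters, synthetases and enzymes. All 8 amino acid transporters were higher after differentiation, from SLC38A2 at 0.31 to the glycine transporter SLC6A9 at 1.69 ± 0.16. Of the 8, 6 were called with library totals alone, SLC38A2 and SLC1A4 being lost. SLC3A2, the heavy chain shared by several exchangers, and the arginine and lysine transporter SLC7A1 rose by 0.65 ± 0.08 and 0.63 ± 0.08, and these and SLC6A9 were already higher before differentiation. Of 13 aminoacyl-tRNA synthetase and tRNA export genes, 7 were higher, among them AARS (0.64 ± 0.10) and IARS (0.50 ± 0.06), and NARS was lower (-0.41 ± 0.07). NARS also lies on chromosome 18. With library totals alone 3 of the 13 were called higher, EPRS, MARS, YARS and TARS being lost, and 2 lower. Of 12 amino acid enzymes 4 were higher, 1 was lower and 7 were not called, and with library totals alone 3 were higher and 1 lower. Before differentiation ALDH18A1 and PYCR1, both of proline synthesis, were the enzymes called higher. The folate enzyme ALDH1L2 rose from 2.92 to 9.70 CPM (1.72 ± 0.25), ALDH18A1 by 0.51 and the mitochondrial PEP carboxykinase PCK2 by 0.50. The serine synthesis genes PHGDH and PSAT1, at -0.07 and 0.05, were not called between genotypes, although differentiation raised both in control cells by 4.75 and 1.53 on the log2 scale.

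Other targets of ATF4 or CHOP included both large rises and a large fall. GDF15, a secreted stress hormone, rose from 34.1 to 169 CPM after differentiation, 4.96-fold (2.31 ± 0.13), and from 4.39 to 10.7 CPM before it (1.31 ± 0.20). STC2, a secreted glycoprotein, had the larger knockout difference before differentiation, 1.85 ± 0.20 against 0.91 ± 0.14 after it (difference -0.93, adjusted p = 0.0206). KLHL24, a ubiquitin ligase adaptor, and MAP1LC3B, a component of autophagosomes, rose by 1.2 ± 0.07 and 1.10 ± 0.08 after differentiation. VLDLR, a lipoprotein receptor, was lower in knockout cells by 3.00 on the log2 scale before (-3.00 ± 0.22) and by 2.12 after differentiation (-2.12 ± 0.21). Of the 13 tested genes in this list 8 were higher and 1 lower after differentiation.

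Genes of neighbouring responses were counted in the same way, and not all of these lists exceeded the share of all genes called. That share was 16.8% higher and 16.3% lower after differentiation, and 9.07% higher and 8.15% lower before it. Of 12 tested genes in the other arms of the unfolded protein response, 7 were higher and 2 lower in knockout cells after differentiation, led by the chaperone HSPA5 (1.53 ± 0.14), its co-chaperone DNAJB9 (1.06 ± 0.10) and SEL1L of endoplasmic reticulum degradation (0.91 ± 0.07). XBP1, also on this list, had no counts in any library and was not tested, for a reason that was not examined. Of 12 genes of heme synthesis and breakdown, 9 were higher before and 11 after differentiation, where ALAS2, the first enzyme of the pathway (1.96 ± 0.07), CPOX (1.49 ± 0.07) and UROS (1.27 ± 0.06) led. The 9 erythroid markers were all higher after differentiation, and 5 of 6 tested mast cell markers were lower. Of 9 p53 targets, SESN1 was higher (0.23) and ZMAT3 lower (-0.66). SESN1 was not called with the size factors of DESeq2 or with library totals alone, where 3 of the 9 were lower. Of 7 hypoxia targets, ADM (2.36, from 0.508 CPM in control cells) and EGLN3 (1.08) were higher, EGLN3 not with library totals alone, and NDRG1 and P4HA1 were lower (-0.97 and -0.52). JUN and JUNB were higher (1.01 and 0.64) of 8 immediate early genes. The part of these shifts, and of the ribosomal RNA share, in the changes of the 10 genes was not tested.

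The gene most like each member was sought among 9602 protein-coding genes of mean log2 CPM of at least 2, by Pearson's r of log2 CPM over the 12 libraries. The libraries fall into 4 groups, so r describes mainly the pattern over groups. MAP1LC3B and FECH, the last enzyme of heme synthesis, were closest to EIF2AK1 (r = 0.988 and 0.987). DUSP1 and KEL were closest to TRIB3 (r = 0.997 and 0.996), with GDF15 next. ASNS and ATF4 were among the 3 closest to each other (r = 0.992), CTH was the closest to ASNS (r = 0.993), and CHAC1 and DDIT4 were likewise paired (r = 0.992). AARS was closest to SESN2 (r = 0.994). Within the 10 genes r ranged from 0.825 for EIF2AK1 with ASNS to 0.992 for CHAC1 with DDIT4.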

How the data were processed

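The authors deposited raw counts of read pairs per gene, 1 column per library and with no normalization. Per the file headers, pairs were counted over exons with featureCounts 1.4.6-p4 on GENCODE release 22 (hg38) with no strand option, although the labels' protocols name a stranded total RNA kit that depletes ribosomal and globin RNA. The submitters' processing notes list Subread 1.6.2, featureCounts 1.2.6, Trimmomatic, FastQC and edgeR 3.18.1. For the length of differentiation the extract protocol in the labels gives 3 days and the growth protocol 5 days. Symbols came from GENCODE release 29 by identifier (56753 of 60483 genes).

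The filter filterByExpr with the 4 groups kept 17175 genes. They were scaled with TMM factors and fitted with edgeR 4.0.16 (R 4.3.3) as 1 group-means model over all 12 libraries. Each contrast was given a quasi-likelihood F-test (two-sided), adjusted by Benjamini-Hochberg over all genes tested and called at an adjusted p under 0.05. The standard error is the size of the log2 fold change divided by the square root of F. Fold changes are ratios of mean CPM. With 3 libraries a group, exact permutation (two-sided) can reach no p under 0.1. Replicate libraries differed by more than sampling noise (chi-square per degree of freedom 5.31 to 19.7), so none was counted as a duplicate. Alternatives were DESeq2 1.42.0, its size factors, library totals alone, no filter, a replicate block, the libraries of each comparison alone, and leaving out each library.

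Named were all 10 genes and, from each list and knockout comparison, up to 3 called genes with the smallest adjusted p. For lists of neighbouring responses this was kept for the comparison after differentiation, and genes called before it are given as counts. EIF2AK3, EIF2AK4, GCN1, SLC38A2, SLC1A4, EPRS, MARS, YARS, TARS, PHGDH, PSAT1, EGLN3, XBP1, HBB and the genes that overlap members were named after their values were seen. The members and lists were chosen with earlier results of these data known.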

Additional observations from a re-analysis of the deposited data

Results flagged for a closer look

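Among the genes named in the text the knockout effect of 24 differed between the stages by the interaction contrast of edgeR (adjusted p under 0.05), which called 13% of all genes tested. Values are the log2 effect after minus that before differentiation. Of the 10 stress response genes these were TRIB3 at 1.11, EIF2AK1 at 0.65 and DDIT3 at 0.64. Among named genes of the pathway lists the effect was larger after differentiation for ATF5 (1.39), GDF15 (1.00), KLHL24 (0.96), MAP1LC3B (0.90), OMA1 (0.68), PCK2 (0.67), PPP1R15A (0.61), CEBPG (0.61) and PPP1R15B (0.51). It was smaller for STC2 (-0.93). Among named genes of neighbouring responses it was larger for ALAS2 (1.32), KLF9 (1.18), HSPA5 (1.05), DNAJB9 (0.97), UROS (0.96), SEL1L (0.93), JUN (0.89), CPOX (0.69), JUNB (0.56) and DUSP1 (0.54), and smaller for FKBP5 (-0.61). OMA1 and PCK2 had negative effects before differentiation (-0.50 and -0.16) and positive ones after it (0.18 and 0.50), of which OMA1 before and PCK2 after passed the test.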

How the results depend on the processing

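All 360 values of the 10 genes under the alternatives kept their direction and call for differentiation in control and knockout cells. For knockout against control after differentiation 170 of 180 did, and the other 10 were lost calls of ATF4 and ASNS. Before differentiation 152 of 180 did, and for the stage difference 141 of 170. Before differentiation 4 genes were called, against 1 with the libraries of the comparison alone and 0 to 4 when leaving out 1 library. For the stage difference 3 were called, against 5 with no filter, 5 with the replicate block (ASNS and SESN2 added, adjusted p = 0.0326 and 0.0358) and 2 to 6 when leaving out 1 library. Pathway genes called for the stage difference numbered 16, and 12 to 30 when leaving out 1 library, 30 without knockout replicate 1 before differentiation. Signs that reversed belonged to small changes that were not called. With library totals alone the stage difference was -0.074 for CHAC1 and -0.017 for DDIT4. Leaving out 1 library moved the change before differentiation between -0.10 and 0.070 for ATF4, -0.38 and 0.096 for ASNS, and -0.027 and 0.55 for SESN2. The value of ASNS at -0.38, without knockout replicate 1, was called and kept its sign. Leaving out 1 library moved the stage difference between -0.21 and 0.32 for CHAC1 and between -0.11 and 0.29 for DDIT4. The cause was not tested. With library totals alone the share of calls that were higher fell from 50.7% to 27.6% for knockout against control after differentiation, from 50.3% to 35.1% for differentiation in knockout cells and from 48.5% to 23.1% for the stage difference. The labels give each group the same replicate numbers, and what a shared number stands for was not tested. Of 18 correlations of same-numbered libraries 10 were over 0.1 (range -0.02 to 0.25), and 10 of 12 libraries correlated best with their own number. The main model left the numbers out, so variation shared by number, if any, was not removed from it. The replicate block called 6137 genes against 5687 after and 3491 against 2958 before differentiation. Depth limits ATF3 most, at 11 to 33 counts per library before differentiation.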
